A study of Mus musculus with 56 samples.

Results

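The comparison described here is daytime-restricted feeding (DRF) against nighttime-restricted feeding (NRF) at zeitgeber time (ZT) 16, in RNA of mouse visceral adipose tissue (VAT). Its libraries were taken by their labels for regimen and time, without use of measured values, and were 8 of the 56 VAT libraries, 4 from each regimen. All mice were C57BL/6J females of 9 weeks, kept in 12 h of light and 12 h of dark on normal chow. They entered at 7 weeks of age and were fed freely for 7 days, and then received food only by day (DRF) or only by night (NRF, the control regimen) for another 7 days. ZT0 is lights on and ZT12 is lights off, so that ZT16 lies 4 h into the dark phase. NRF mice had access to food at this time and DRF mice did not. RNA came from the whole tissue, so each value is a sum over adipocytes and all other cells of the depot, and the regimen changed feeding without changing the light. The other 48 libraries came from ZT0, ZT4, ZT8, ZT12, ZT20 and ZT24, and those of ZT4, ZT12 and ZT20 were used to ask whether the regimen difference at ZT16 was also present at other times.

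White fat takes up glucose and fatty acids after a meal and stores them as triglyceride, and releases fatty acids and glycerol during a fast. Insulin drives the first state, and falling insulin with adrenergic input drives the second. Nearly every cell of the tissue also carries a circadian clock. In it, the activators CLOCK, NPAS2 and BMAL1 (gene Arntl) switch on their own repressors, PER, CRY, CIART and BHLHE40/41, through the E-box. REV-ERB (Nr1d1, Nr1d2) and ROR factors compete for another element, and the PAR bZIP factors (Dbp, Tef, Hlf) and their rival NFIL3 for the D-box.

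Between 33.5 and 41.2 M reads on genes could be recovered for each ZT16 library, and 22518 to 23266 genes had a value above 0. Values are given as CPM (read counts scaled to a common library size), recovered as explained with the processing, and differences are those of log2(CPM + 1), DRF minus NRF, which understates the change of low genes. Folds are these differences taken off the log2 scale, so they understate low genes in the same way and are not ratios of CPM. CPM is not divided by gene length and was compared only within a gene. The first principal component held 48.3% of the variance of the 8 libraries and separated the regimens, with DRF libraries between -24.44 and -18.24 and NRF libraries between 17.79 and 28.85. NRF replicate 3 lay among the other NRF libraries on it, but for several genes described below its value was the nearest of the NRF values to those of DRF mice. Over all called genes this was not particular to it: NRF replicate 4 was nearest to the DRF mice for 29.96% of them, replicate 3 for 29.2%, replicate 2 for 28.0% and replicate 1 for 12.8%. Without this library, 3664 genes passed the threshold, against 4069 with all 8.

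At ZT16, 4069 of 15592 genes tested (26.1%) differed between the regimens (limma, Benjamini-Hochberg adjusted p under 0.05), 2038 of them higher (13.1%) and 2031 lower (13.0%) under DRF. These shares are the background for every gene list below. At an unadjusted p under 0.05 the count was 6058. The median size of a called difference was 0.45 on the log2 scale, beside a median SD between mice of 0.14 in each regimen, and 118 called genes were at least 2-fold higher and 117 at least 2-fold lower under DRF. The values of the 2 regimens did not overlap for 4440 genes (28.5%). In whole tissue, fewer cells of a type and less RNA per cell cannot be told apart.

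Of the 24 pathway lists, the clock had the largest share of called members. Of its 19 genes, 4 were higher and 12 lower under DRF, and the median difference was -0.71 against -0.01 over all genes tested. Clock, Npas2, Rora and Nr1d1 rose, and among the 12 that fell were Per2, Per3, Cry1, Cry2, Ciart, Bhlhe40, Bhlhe41, Dbp, Tef, Hlf and Nfil3. Arntl, Per1 and Nr1d2 did not pass the test. Leaving out any single library left 3 or 4 members higher and 11 or 12 lower.

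Nr1d1, which encodes the repressor REV-ERB alpha (GRCm38, chromosome 11, 98767932 to 98775333), showed the largest rise of the list. Its level was 51.2, 85.1, 82.9 and 91.9 CPM in the 4 DRF libraries and 15.0, 16.2, 16.4 and 11.9 CPM in the 4 NRF libraries. The groups were far apart, and the difference was 2.29 (SE 0.17), 4.88-fold, with an adjusted p of 2.5e-05 in limma. Its paralog Nr1d2 was at 47.9, 51.9, 66.8 and 56.3 CPM under DRF and 59.7, 65.8, 77.8 and 38.7 CPM under NRF. These values overlapped, and the difference of -0.08 (adjusted p = 0.77 in limma) took the other sign, 0.050, without NRF replicate 3. Rora, an activator that competes with REV-ERB, was higher by 0.34 (adjusted p = 0.028), a call that was lost without any one of DRF replicates 1, 3 and 4 and NRF replicates 1 and 4 (adjusted p 0.051 to 0.070).

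Among the activators, Npas2, a partner of BMAL1 that can stand in for CLOCK, was read at 5.45, 5.13, 2.88 and 2.56 CPM under DRF and at 0.653, 0.547, 0.351 and 1.72 CPM under NRF. All DRF mice were above all NRF mice, at a difference of 1.46 (SE 0.25, adjusted p = 0.0018). Clock was higher by a smaller margin, at 102, 95.5, 102 and 94.1 CPM against 59.1, 74.2, 56.4 and 80.8 CPM (0.55, adjusted p = 0.0043). Arntl, which encodes BMAL1, was measured at 15.9, 10.9, 8.47 and 9.61 CPM under DRF and at 5.201, 8.45, 5.34 and 22.7 CPM under NRF. NRF replicate 4 had the highest value of the 8, and the difference of 0.30 (adjusted p = 0.58) rose to 0.73 (adjusted p = 0.031) without it.

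The repressors of the E-box loop were mostly lower under DRF. Per2 was at 51.3, 35.7, 30.6 and 33.0 CPM under DRF and 118, 109.7, 70.7 and 90.2 CPM under NRF (-1.34, SE 0.18, adjusted p = 0.00052), with every DRF mouse below every NRF mouse. Cry1 was at 19.02, 17.7, 14.7 and 16.2 CPM against 25.3, 35.1, 23.1 and 45.1 CPM (-0.84, adjusted p = 0.006). Per3 (-0.71) and Cry2 (-0.50) were lower as well, and Cry2 varied little among DRF mice, from 73.9 to 76.7 CPM. Ciart, a small corepressor of the CLOCK complex, was at 0.674 ± 0.232 CPM under DRF and 1.77 ± 0.824 CPM under NRF (-0.69, adjusted p = 0.022); the call was lost without DRF replicate 4 (adjusted p = 0.058) or NRF replicate 2 (adjusted p = 0.054). Per1, which glucocorticoids and other acute signals also induce, overlapped between the groups (68.9, 40.8, 31.1 and 32.6 CPM against 36.2, 50.2, 50.1 and 72.4 CPM, adjusted p = 0.4).

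The paired repressors Bhlhe40 and Bhlhe41 (DEC1 and DEC2) had some of the widest gaps. Bhlhe41 was at 5.02, 7.84, 8.83 and 7.17 CPM under DRF and at 44.5, 36.3, 16.5 and 25.7 CPM under NRF, with no overlap, a 3.69-fold lower level under DRF (-1.88, SE 0.26, adjusted p = 0.00063). For Bhlhe40 the DRF values were 22.4, 29.0, 36.2 and 30.6 CPM and the NRF values 226, 173, 33.0 and 188 CPM. NRF replicate 3 fell inside the DRF range while the other NRF mice were at 173 CPM or more. The difference was -2.06 (adjusted p = 0.0095) with this library and -2.69 (adjusted p = 7.6e-06) without it, and an exact permutation test gave p = 0.057.

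All PAR bZIP output genes and their antagonist were lower under DRF. Hlf was at 13.2, 11.8, 13.6 and 13.2 CPM under DRF and 35.0, 46.7, 42.7 and 31.7 CPM under NRF (-1.51, SE 0.12, adjusted p = 2.6e-05), so that the DRF mice differed little from each other. Dbp was read at 11.5, 19.3, 24.1 and 27.5 CPM and 58.9, 66.8, 91.9 and 30.1 CPM, respectively (-1.51, adjusted p = 0.0058). The highest DRF mouse and the lowest NRF mouse were close for this gene. Tef (-0.94, adjusted p = 0.0011) and Nfil3 (-1.54, adjusted p = 0.0078) were lower as well, with Nfil3 spread widely among NRF mice, from 14.6 to 60.6 CPM.

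**Figure D1:**
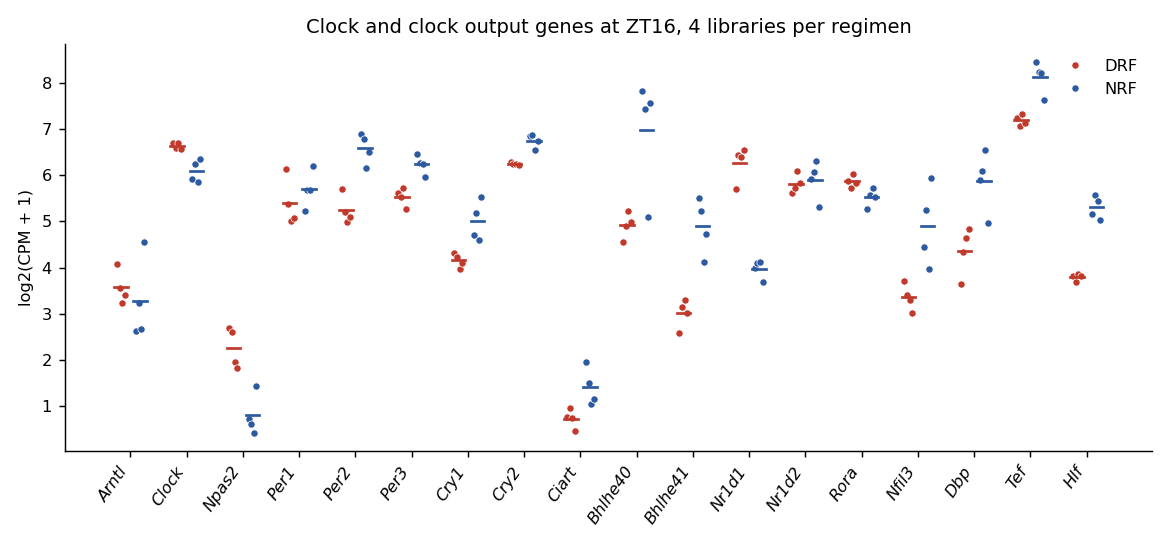
Level of 18 clock and clock output genes at ZT16 on a log2(CPM + 1) axis, with 1 point per library (red, DRF; blue, NRF; 4 each) and a bar at the group mean. Nr1d1 and Npas2 lie higher in every DRF library than in any NRF library, Per2, Bhlhe41, Hlf and Dbp lie lower, and Arntl, Per1 and Nr1d2 overlap.

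The promoter windows of clock genes are shown because clock factors act on this list through the elements named above. Of the 37 clock genes and genes of largest change, 26 had a window of 300 bases (250 before to 50 after the transcription start, RefSeq, GRCm38.p6), and each window was searched on both strands. The E-box CACGTG occurred in 6 of these 26 genes (Per1, Cry1, Tef, Bhlhe41, Ciart and Pdzk1ip1) and in 7.15% of all 32851 windows. The D-box TTATGTAA occurred in 2 (Per3 and Crtac1) and in 0.938% of all windows. The element of REV-ERB and ROR factors, searched as GTAGGTCA, occurred in 2 (Arntl and Nfil3) and in 0.621% of all windows, and its core AGGTCA, which lies within it, in 5 genes and in 16.3% of all windows. The sterol element TCACCCCAC, the FOXO element GTAAACA and the cyclic AMP element TGACGTCA occurred in 0, 1 and 1 of the 26 genes, and in 0.551%, 3.65% and 1.79% of all windows. A gene was counted if any of its windows held the element, whereas the percentages count single windows, so the counts and percentages are not like for like. A match describes the letters only. The windows below run 5′ to 3′ on the strand of the gene, with the element in capitals.

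Bhlhe41 (lower under DRF, chr6:145865371-145865670, minus strand) and Ciart (lower, chr3:95882179-95882478, minus strand) carry the E-box, which occurs 1 and 3 times in their windows.
Bhlhe41: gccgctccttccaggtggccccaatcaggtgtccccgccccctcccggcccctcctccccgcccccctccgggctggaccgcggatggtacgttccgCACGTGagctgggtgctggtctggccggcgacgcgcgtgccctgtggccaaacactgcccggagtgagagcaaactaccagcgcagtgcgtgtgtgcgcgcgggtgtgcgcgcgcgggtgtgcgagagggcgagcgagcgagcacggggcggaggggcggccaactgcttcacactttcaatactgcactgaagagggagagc
Ciart: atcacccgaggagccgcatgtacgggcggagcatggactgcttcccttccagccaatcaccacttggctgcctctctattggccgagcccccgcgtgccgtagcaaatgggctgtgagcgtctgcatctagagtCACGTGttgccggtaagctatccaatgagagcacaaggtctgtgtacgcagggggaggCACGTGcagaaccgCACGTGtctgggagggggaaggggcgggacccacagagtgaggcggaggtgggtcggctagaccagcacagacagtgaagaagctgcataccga
Per3 (lower, chr4:151044616-151044915, minus strand) carries the D-box 2 times, with the first copy 205 bases before the start.
Per3: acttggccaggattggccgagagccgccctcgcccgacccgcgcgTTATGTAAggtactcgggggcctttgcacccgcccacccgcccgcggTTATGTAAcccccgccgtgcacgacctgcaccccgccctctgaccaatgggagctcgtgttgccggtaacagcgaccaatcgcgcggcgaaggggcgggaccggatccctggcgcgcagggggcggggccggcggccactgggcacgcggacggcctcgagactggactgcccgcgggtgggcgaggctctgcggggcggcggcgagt
Arntl (not called, chr7:113207261-113207560, plus strand) carries the REV-ERB and ROR element 29 bases after the start of 1 of its 2 windows, and Nfil3 (lower, chr13:52980990-52981289, minus strand) carries its reverse complement 12 bases before the start.
Arntl: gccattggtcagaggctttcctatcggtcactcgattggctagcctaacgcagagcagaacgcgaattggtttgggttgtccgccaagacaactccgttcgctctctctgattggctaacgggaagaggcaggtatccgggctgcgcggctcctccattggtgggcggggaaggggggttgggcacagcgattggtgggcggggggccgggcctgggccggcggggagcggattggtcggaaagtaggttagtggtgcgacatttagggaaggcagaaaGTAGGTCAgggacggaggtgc
Nfil3: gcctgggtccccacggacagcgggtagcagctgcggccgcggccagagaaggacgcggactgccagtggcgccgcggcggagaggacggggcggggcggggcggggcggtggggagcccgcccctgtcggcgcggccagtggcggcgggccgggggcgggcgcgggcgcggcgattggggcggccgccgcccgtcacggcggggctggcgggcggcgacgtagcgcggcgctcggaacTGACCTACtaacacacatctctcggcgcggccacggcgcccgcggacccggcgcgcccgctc

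Lipid and sugar genes moved in both directions. In the lists of fatty acid synthesis, sterol synthesis and NADPH supply more members were higher than lower under DRF, and Pck1, Angptl4, Pdk4, Ppara and Adrb3 were also higher. Srebf1, Ppp1r3b, Hk2 and Lep were lower.

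De novo lipogenesis had 7 of 16 tested members higher and 2 lower, with a median difference of 0.61. Without any one of DRF replicates 1, 2 and 4 and NRF replicates 3 and 4, 1 member was lower. Acss2, which makes acetyl-CoA from acetate, was at 1819, 1542, 1858 and 2118 CPM under DRF and 389, 841, 442 and 939 CPM under NRF (1.58, SE 0.26, adjusted p = 0.0015). Elovl6, which lengthens palmitate to stearate, was at 2439.8, 2380.2, 3187 and 2806 CPM against 610.5, 1455, 798 and 1782 CPM (1.34, adjusted p = 0.007). For both genes and for Me1, the malic enzyme that supplies NADPH (1.34, adjusted p = 0.011), NRF mice fell into a lower pair (replicates 1 and 3) and a higher pair (replicates 2 and 4), and no NRF mouse reached the lowest DRF mouse. With all 56 libraries in 1 fit, Elovl6 (adjusted p = 0.22) and Me1 (adjusted p = 0.12) were not called. Scd2 (1.16), Acaca (0.97), Acly (0.90) and Fads2 (0.86) rose as well. Fasn, the fatty acid synthase, was higher by 0.74 and missed the threshold (adjusted p = 0.14). Scd1, the main adipose desaturase, could not be converted to reads, and its deposited score was 149 ± 1.01 under DRF and 141 ± 3.26 under NRF (SD, n = 4, exact permutation p = 0.029, the smallest that 4 against 4 mice can give).

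Srebf1, the transcription factor whose targets include these lipogenic enzymes, moved against them. It was at 423, 418, 475 and 514 CPM under DRF and 1095, 1067, 1021 and 1104 CPM under NRF. The NRF mice were nearly identical to each other and all were above every DRF mouse, with a difference of -1.23 (SE 0.09, adjusted p = 2.5e-05). Elovl5 was the other member that fell (-0.33), and Mlxipl, the gene of the carbohydrate sensor ChREBP, gave -0.21 and was not called (adjusted p = 0.57).

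In triglyceride synthesis, 3 of 15 members rose and 4 fell. Mogat2, a monoacylglycerol acyltransferase, was at 48.5, 39.8, 57.6 and 61.5 CPM under DRF and 6.43, 17.8, 7.82 and 13.8 CPM under NRF, a 4.49-fold difference (adjusted p = 0.00031). The glycerol kinase gene Gk, which reuses glycerol within the fat cell and has close relatives in the genome among which reads may be shared, was higher by 1.15 (adjusted p = 0.00026). The first and last enzymes of the main route, Gpam (-0.68, adjusted p = 0.0018) and Dgat1 (-0.49, adjusted p = 0.0015), were lower under DRF. Dgat2 was not called (-0.01). Without NRF replicate 1 or NRF replicate 2, 2 members instead of 4 were lower.

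Of 18 lipolysis genes, 4 rose and 6 fell, while the median was positive (0.14, and 0.088 and 0.093 without NRF replicates 1 and 4), so that counts and median differed in sign. Adrb3, the beta3-adrenergic receptor of adipocytes, was at 458, 504, 355 and 432 CPM under DRF and 194, 222, 267 and 156 CPM under NRF (1.07, SE 0.15, adjusted p = 0.00083). G0s2, which inhibits the triglyceride lipase ATGL, was at 191, 145, 153 and 189 CPM against 369, 428, 239 and 375 CPM (-1.03, adjusted p = 0.0013). The receptor was higher and the inhibitor lower in every DRF mouse. Hcar2, a receptor that restrains lipolysis, was also higher, at 19.1, 28.9, 34.8 and 31.4 CPM against 13.2, 15.9, 20.1 and 14.4 CPM (0.79, adjusted p = 0.0075). Its values overlapped, and the call was lost in an exact permutation test (p = 0.057) and with all 56 libraries in 1 fit (adjusted p = 0.080). The glycerol channel Aqp7 rose (0.75), and the droplet proteins Cidec (-0.67) and Hilpda (-0.72) fell. The lipase genes themselves gave -0.08 (Pnpla2, ATGL), 0.34 (Lipe) and 0.25 (Mgll), and none of these passed the test. Adrb1, the gene of the beta1-adrenergic receptor, fell (-0.49).

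Genes for the uptake of circulating lipid held both of the angiopoietin-like proteins that control lipoprotein lipase. Angptl4, which inactivates the lipase in fasted fat, was at 659, 704, 491 and 627 CPM under DRF and 130.5, 136, 227 and 145 CPM under NRF, a 3.93-fold higher level (SE 0.17 on the log2 scale, adjusted p = 5.0e-05). Angptl8, a feeding-induced member of the family, was at 43.2, 50.8, 55.8 and 71.4 CPM under DRF and 386, 365, 42.2 and 351 CPM under NRF. NRF replicate 3 was the NRF mouse nearest to the DRF range for Angptl4, and lay just below that range for Angptl8. The Angptl8 difference of -1.96 passed narrowly (adjusted p = 0.029), became -2.73 (adjusted p = 7.1e-06) without NRF replicate 3, and lost the call without any one of DRF replicates 1, 2 and 3 and NRF replicates 1, 2 and 4 (adjusted p 0.058 to 0.084). The exact permutation p was 0.14. Lpl itself gave 0.18 (adjusted p = 0.56) and the transporter Cd36 0.21 (adjusted p = 0.27). The VLDL receptor gene Vldlr (0.70) and the fatty acid carrier Fabp5 (1.17) rose. In all, 3 of 12 members rose and 4 fell, and 2 fell without any one of DRF replicates 1 to 3 or NRF replicate 1.

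Fatty acid oxidation had 9 of 20 members higher and 2 lower, with a median of 0.13 that was 0.28 without NRF replicate 3. Ppara, the nuclear receptor that drives this programme, was at 9.16, 10.8, 12.1 and 8.93 CPM under DRF and 4.98, 5.11, 4.42 and 2.82 CPM under NRF (1.09, SE 0.16, adjusted p = 0.00082). The other 8 were the mitochondrial and peroxisomal enzymes Hadhb (0.58), Etfdh (0.57), Hadha (0.54), Acadm (0.51), Acaa2 (0.51), Cpt1a (0.49), Ehhadh (0.47) and Acadvl (0.36), all under 1.5-fold. The mitochondrial carrier Ucp3 (-0.78, adjusted p = 0.00057) and the thioesterase Acot1 (-1.38, adjusted p = 0.00067) were lower. Acot1 has near-identical neighbours among which the authors' counting could divide reads, so its value is uncertain.

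Glucose and glycogen genes contained the largest fall and the largest rise of the metabolic lists, with 8 of 19 higher and 4 lower (median 0.24, and 0.13 without NRF replicate 3). Ppp1r3b, which targets protein phosphatase 1 to glycogen and promotes its synthesis, was at 78.3, 53.3, 88.3 and 65.6 CPM under DRF and 534, 690.0, 255 and 694 CPM under NRF. Every NRF mouse was above every DRF mouse, although NRF replicate 3 was far below the other NRF mice. The difference was -2.83 (SE 0.28), 7.12-fold lower under DRF, with an adjusted p of 0.00013. Its relative Ppp1r3c (-1.12), the hexokinase Hk2 (-1.14) and the pyruvate dehydrogenase phosphatase Pdp2 (-0.60) fell with it.

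Pck1, which in fat makes the glycerol backbone for fatty acids that are re-esterified during a fast, was at 1129, 1265, 1167 and 1322 CPM under DRF and 214, 232, 603 and 99.4 CPM under NRF. DRF mice were uniform, whereas NRF mice varied widely with replicate 3 highest, and the difference was 2.38 (SE 0.39, adjusted p = 0.0017). Pdk4, which shuts off glucose oxidation, was at 170.4, 142, 148 and 114 CPM against 39.9, 45.1, 111 and 44.7 CPM (1.36, adjusted p = 0.0043), again with NRF replicate 3 nearest to the DRF mice. The glycogen enzymes Gys2 (1.56, adjusted p = 0.00025), Gbe1 (0.71) and Pygl (0.69) rose, as did Txnip (0.97), an inhibitor of glucose uptake. Slc2a4, the insulin-responsive glucose transporter GLUT4, was not called (0.24, adjusted p = 0.19).

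Of NADPH and pentose phosphate genes, 6 of 10 were higher and 1 lower (median 0.43), and 4 were higher without any one of the DRF libraries or NRF replicates 1 and 3. G6pdx, the entry enzyme, was at 682, 603, 615 and 709 CPM under DRF and 256, 432, 264 and 398 CPM under NRF (0.99, adjusted p = 0.0017), and Pgd, the next dehydrogenase, rose by 0.79 (adjusted p = 0.0081). Rpia, the ribose isomerase, was the member that fell (-0.84, adjusted p = 0.0011).

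Cholesterol genes split within the pathway, with 10 of 26 higher and 4 lower (median 0.24, and 0.16, 0.37 and 0.40 without DRF replicate 4, DRF replicate 2 and NRF replicate 4). Several late steps were higher. Lss, which closes the sterol rings, was at 249, 183, 243 and 294 CPM under DRF and 68.1, 99.0, 78.0 and 137 CPM under NRF (1.36, adjusted p = 0.00085), and Cyp51 (1.17, adjusted p = 0.0031), Nsdhl (1.11) and Tm7sf2 (1.09) followed. The squalene synthase Fdft1 (-0.67) and the carrier Stard4 (-0.32) were among those that fell. The regulators Srebf2 (-0.11) and Insig1 (-0.05) were not called.

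**Figure D2:**
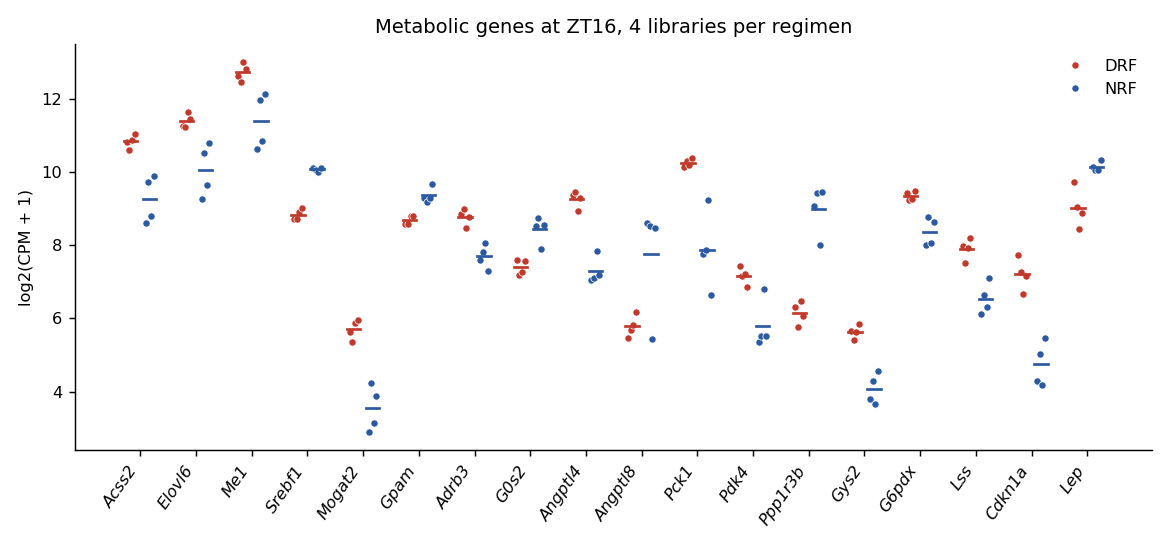
Level of 18 metabolic genes at ZT16 on a log2(CPM + 1) axis, with 1 point per library (red, DRF; blue, NRF; 4 each) and a bar at the group mean. Srebf1, Ppp1r3b and Lep lie lower in every DRF library than in any NRF library, Acss2, Angptl4, Pck1 and Cdkn1a lie higher, and 1 NRF library of Angptl8 (replicate 3) lies with the DRF libraries.

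Adipose hormones were lower or not called: 7 of 14 fell and 0 rose, with a median of -0.40. Lep, the satiety hormone leptin, was at 849.6, 526, 349.5 and 465 CPM under DRF and 1115, 1071, 1057 and 1289 CPM under NRF (-1.12, SE 0.21, adjusted p = 0.0037). Cfd, the adipocyte complement factor adipsin, was at 3835, 4801, 4118 and 4298 CPM against 12612, 12835, 12527 and 11529 CPM, a 2.91-fold lower level (adjusted p = 0.0003). Angptl2, a secreted inflammatory factor, was at 104, 112, 103 and 114 CPM against 369, 330.1, 330.0 and 273 CPM (-1.57, adjusted p = 1.4e-05). For each of these the highest DRF mouse was below the lowest NRF mouse. Apelin (Apln, -1.15), Nrg4 (-0.95), Igf1 (-0.45) and adiponectin (Adipoq, -0.43) fell, and resistin (Retn) gave 0.00.

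In the insulin and FOXO list, 4 of 22 members rose and 8 fell (median -0.08, and -0.15 without NRF replicate 1). The kinase genes Akt1 (-0.78, adjusted p = 0.00018) and Akt2 (-0.49) and the cytokine signalling inhibitors Socs2 (-0.64) and Socs3 (-0.61) fell, as did the repressor Bcl6 (-0.89). Irs1 rose (0.36), and Irs2, which insulin represses, gave 0.64 and was not called (adjusted p = 0.0501). Without any one of DRF replicate 2, DRF replicate 3 and NRF replicate 1, 1 member was higher instead of 4, and without NRF replicate 4, 2 were.

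Among 18 genes that respond to glucocorticoids, 5 rose and 2 fell. Their median of -0.07 had no stable sign and lay between -0.19 (without DRF replicate 1) and 0.09 (without DRF replicate 3) when 1 library was left out. Cdkn1a, the cell cycle inhibitor p21, was at 209.9, 153, 100.6 and 141 CPM under DRF and 18.4, 31.9, 17.2 and 43.2 CPM under NRF, with no overlap and a 5.51-fold higher level (SE 0.28 on the log2 scale, adjusted p = 0.00025). Hsd11b1, which regenerates active glucocorticoid inside cells, was at 219.6, 140.1, 111 and 129 CPM against 37.5, 53.7, 37.2 and 52.5 CPM (1.68, adjusted p = 0.00026). The classical receptor targets Fkbp5 (0.24), Tsc22d3 (-0.66) and Sgk1 (-0.26) were not called, and Dusp1 fell (-0.50, adjusted p = 0.017). The other called members were Pdk4, Angptl4 and Zbtb16 (1.15), which were higher, and Klf9 (-0.42), which was lower. The Klf9 values overlapped, and its call was lost without any one of DRF replicates 2, 3 and 4 and NRF replicates 2 and 3 (adjusted p 0.051 to 0.082) and in an exact permutation test (p = 0.11). Pdk4 and Angptl4 are also known targets of fatty acid receptors, and Cdkn1a of p53. Without any one of DRF replicates 2 and 4 and NRF replicates 2 and 3, 1 member fell.

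In ribosome biogenesis, 12 of 26 members fell and 0 rose (median -0.23). The nucleolar genes Wdr43 (-0.74), Nop2 (-0.74) and Nolc1 (-0.58) and Polr1a (-0.52), the largest subunit of RNA polymerase I, led the list, with adjusted p-values of 0.0015 or less. Without DRF replicate 1, 7 members fell. Of 21 genes of the amino acid response, 8 fell and 2 rose (median -0.35). Atf4, its transcription factor, was at 60.6, 73.2, 67.5 and 66.7 CPM under DRF and 143, 145, 101.5 and 169 CPM under NRF (-1.03, adjusted p = 0.00046), and its targets Trib3 (-1.02), Chac1 (-0.98) and Asns (-0.85) were lower with it. Mthfd2, a mitochondrial folate enzyme, rose (0.96, adjusted p = 0.0002).

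The heat shock genes Hspa1a (-1.09) and Hspa1b (-0.83), near-identical copies among which reads may be divided, and the cochaperone Dnajb1 (-0.59) fell. In this list 5 of 17 members were lower and 1 higher. Without NRF replicate 3 the lower members numbered 9, and without any one of the other 7 libraries they numbered 3. Aminoacyl-tRNA synthetases (3 of 20 higher, 0 lower), endoplasmic reticulum chaperones (3 of 21 higher, 2 lower) and NAD genes (2 of 15 in each direction) had shares called of 15.0%, 23.8% and 26.7%, near or below the 26.1% of all genes. Without DRF replicate 4 or NRF replicate 1, no synthetase gene was called. Without any one of DRF replicates 1 and 4 and NRF replicate 1, 1 chaperone gene was higher instead of 3. Autophagy genes were at 26.1%, with 5 of 23 higher and 1 lower, among them Atg12 (0.44), Atg13 (0.42) and the regulator Tfeb (-0.45).

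Immediate early genes, which are transcribed within minutes of a stimulus, were lower or not called: 12 of 22 fell and 0 rose (median -0.48). Klf2 was at 40.2, 50.5, 42.0 and 51.7 CPM under DRF and 88.9, 103, 81.4 and 73.5 CPM under NRF (-0.89, adjusted p = 0.00046). Fosl2 was at 52.9, 51.6, 53.6 and 52.5 CPM against 102, 110.3, 66.6 and 108 CPM (-0.84, adjusted p = 0.0015), with NRF replicate 3 again nearest to the DRF mice. Ier3 (-1.13), Atf3 (-0.76) and Jun (-0.61) fell, while Fos (-0.04) and Egr1 (-0.03) were not called. Without any one of DRF replicates 1 and 3 and NRF replicate 2, 7 members fell. Of 17 KLF, C/EBP and adipogenic factors, 6 fell, among them Pparg (-0.46, adjusted p = 0.0011), the master regulator of fat cells, and 1 rose, Klf11 (0.66, adjusted p = 0.0073). Without NRF replicate 2 or NRF replicate 3, 3 fell.

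Cell cycle genes had the largest share of rises of the 24 pathway lists, with 15 of 20 higher and 0 lower under DRF (median 0.62). Top2a, the topoisomerase of dividing cells, was at 11.2, 16.3, 21.6 and 16.9 CPM under DRF and 6.02, 6.23, 7.80 and 5.69 CPM under NRF (1.21, SE 0.17, adjusted p = 0.00068). Mki67, which encodes the proliferation marker Ki-67, was at 15.1, 19.3, 21.8 and 19.8 CPM against 8.93, 7.90, 11.5 and 9.76 CPM (0.92, adjusted p = 0.00075). The lowest DRF mouse exceeded the highest NRF mouse for both. Cyclins A2 (Ccna2, 0.88) and B1 (Ccnb1, 0.87) rose, and the replication genes Pcna (0.17), Mcm3 (0.29) and Mcm6 (0.15) were not called. Which cells carried these transcripts was not tested. Leaving out any single library gave 12 to 16 members higher and 0 lower. With all 56 libraries in 1 fit, however, Top2a (adjusted p = 0.079), Mki67 (0.19), Ccna2 (0.12) and Ccnb1 (0.11) were not called. That fit takes the spread from all 14 groups. Among them were the DRF mice of ZT8, with Top2a at 34.9 ± 46.9 CPM and Mki67 at 32.4 ± 37.8 CPM (SD, n = 4).

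Interferon-stimulated genes were lower where called (5 of 17 fell, 0 rose, median -0.31), among them Stat2 (-0.63) and Ifit3 (-0.74). Matrix genes were divided. The basement membrane collagens Col4a1 (0.37) and Col4a2 (0.42) and Col6a1 (0.44) were among 7 of 23 that rose, and the matrix proteases Mmp2 (-1.18, 43.1, 57.5, 70.3 and 52.6 CPM against 133, 108, 153 and 114 CPM, adjusted p = 0.00037) and Mmp14 (-0.71) were among 3 that fell. The median of this list was -0.12, and 0.021 without NRF replicate 3. The count of rises was fragile and fell to 2 without any one of DRF replicates 1, 2 and 4 and NRF replicate 1, and to 3 without NRF replicate 2.

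**Figure D3:**
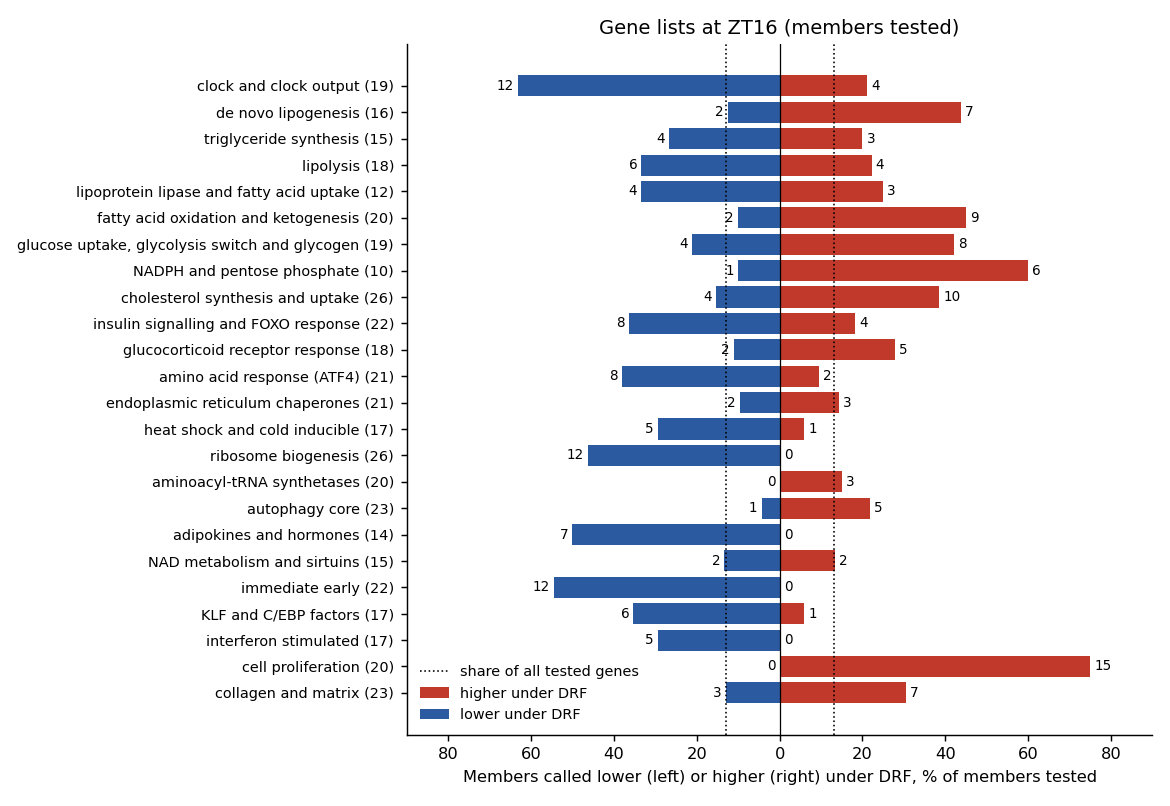
Percentage of the tested members of each of 24 gene lists that were called higher (red, to the right) or lower (blue, to the left) under DRF at ZT16, with the number of members at the bar ends and the number tested in brackets. Dotted lines mark the share of all tested genes, 13.1% higher and 13.0% lower. Cell proliferation extends farthest to the right, and clock, immediate early and hormone genes farthest to the left.

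Among protein-coding genes called, not overlapping and with a mean log2 level of at least 1 (3225 genes), the largest rise was that of Podnl1, a leucine-rich matrix protein gene (GRCm38, chromosome 8, 84125989 to 84132527). It was at 26.9, 26.1, 29.99 and 40.3 CPM under DRF and 1.33, 3.20, 1.08 and 4.28 CPM under NRF, a 9.74-fold difference (3.28, SE 0.27, adjusted p = 3.6e-05). Ncan, the gene of the proteoglycan neurocan, was at 23.9, 15.2, 17.2 and 26.1 CPM against 1.23, 4.32, 2.64 and 4.18 CPM (2.45, adjusted p = 0.00018). Pdzk1ip1 (2.14), a small membrane protein, Colq (1.97), the collagen tail of acetylcholinesterase, and Wdr95 (1.90) followed. Cdkn1a, Pck1, Nr1d1, Mogat2 and Angptl4, described above, completed the 10 largest rises. Colq was under 0.4 CPM in each NRF mouse, so its difference on this scale is understated.

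The largest fall was that of Ppp1r3b. Nnat, an imprinted gene for the membrane protein neuronatin, was at 48.9, 72.9, 32.8 and 38.8 CPM under DRF and 422, 326, 245 and 185 CPM under NRF (-2.58, SE 0.26, adjusted p = 0.00016). Usp2, a deubiquitinase gene driven by the clock, was at 11.4, 8.81, 8.10 and 9.64 CPM against 55.01, 65.3, 39.6 and 47.6 CPM (-2.32, adjusted p = 1.5e-05). The regimens did not overlap for either gene. Smtnl2 (-2.32), Crtac1 (-2.30), Pcsk4 (-2.23), Pmepa1 (-2.08), Plppr3 (-2.03), Bhlhe41 and Serpina3b (-1.87), a member of a large serpin cluster among whose copies reads may be shared, completed the 10 largest falls. Pcsk4, a proprotein convertase, had the smallest adjusted p-value of all 20 genes (5.4e-06), at 6.79, 8.39, 5.81 and 8.11 CPM against 38.5, 38.3, 40.1 and 33.5 CPM. Pmepa1 is a feedback inhibitor of TGF-beta signalling, and was at 50.7 ± 12.0 CPM (SD, n = 4) under DRF and 216 ± 33.9 CPM under NRF.

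Whether these differences belong to ZT16 was asked against ZT4, 12 h away and in the light, where DRF mice were fed and NRF mice were not, and against the neighbouring times ZT12 and ZT20. Each of these comparisons used 8 other mice, and the 3 tests of the difference share the ZT16 libraries. On the same 15592 genes, 6039 (38.7%) differed between the regimens at ZT4, 4724 (30.3%) at ZT12 and 4342 (27.8%) at ZT20. At ZT8, for which no interaction was fitted, 1104 genes (7.08%) differed, and 450 of them were also called at ZT16, 203 with the same sign and 247 with the opposite sign. DRF mice varied widely at ZT8 for some genes. Lep was at 1294 ± 1036 CPM under DRF and 227 ± 114 CPM under NRF, and Top2a at 34.9 ± 46.9 and 9.08 ± 4.01 CPM (SD, n = 4). The ZT8 count depends on such spread as well as on the size of the differences. The regimen difference at ZT16 was itself different from that at ZT4 for 4837 genes (31.0%), from that at ZT12 for 3215 (20.6%) and from that at ZT20 for 1629 (10.4%), by the interaction of regimen and time in limma. With libraries scaled by their total recovered reads, the share of the ZT4 interactions that were positive moved from 47.0% to 65.6%, and that of the ZT12 interactions from 41.2% to 30.8%.

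Of the 4069 genes called at ZT16, 1803 (44.3%) were also called at ZT20, which is 41.5% of the ZT20 calls, and 1671 of the shared genes had the same sign. At ZT12, 1810 (44.5%, and 38.3% of the ZT12 calls) were called, 1253 with the same sign and 557 with the opposite sign. At ZT4, 2027 (49.8%, and 33.6% of the ZT4 calls) were called, and signs were divided into 893 the same and 1134 opposite. A further 745 genes (18.3%) were called at ZT16 and at none of ZT4, ZT12 and ZT20.

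The genes that reversed between ZT4 and ZT16 while keeping their sign at ZT20 numbered 752 (18.5% of the ZT16 calls), 295 higher and 457 lower under DRF at ZT16. Ppp1r3b was one, at 4.63 at ZT4, -2.83 at ZT16 and -3.60 at ZT20. In CPM it was at 847 ± 137 under DRF and 45.4 ± 38.2 under NRF at ZT4 (SD, n = 4), and at 71.3 ± 15.2 and 543 ± 206 at ZT16. Pck1 ran the other way, at -1.81, 2.38 and 5.12, and its difference was larger at ZT20 than at ZT16 (adjusted p = 0.0033). Angptl4 (-1.54 at ZT4), Adrb3 (-1.43), Ppara (-0.70), Lep (2.13), Srebf1 (1.35), Atf4 (1.16) and Smtnl2 (3.61) each had the opposite sign at ZT16.

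Other genes had the same sign at ZT4 and ZT16 although feeding was reversed. Podnl1 was higher by 3.43 at ZT4, 3.79 at ZT12, 3.28 at ZT16 and 1.33 at ZT20, and its level under NRF stayed between 1.19 ± 0.603 CPM at ZT4 and 3.998 ± 1.29 CPM at ZT20. Ncan (3.48 at ZT4), Mogat2 (2.41), Pdzk1ip1 (2.27) and Nnat (-2.29) were the next genes by the smaller of both differences. For all 5 genes the test of the difference between ZT4 and ZT16 was not passed, with adjusted p-values from 0.073 (Ncan) to 0.85 (Pdzk1ip1), which does not show that the differences are equal. At ZT20 the differences were 0.77 (Ncan), 0.66 (Mogat2), -0.0051 (Pdzk1ip1) and 0.40 (Nnat), none of them called, and all 5 genes differed between ZT16 and ZT20 (adjusted p 0.0063 to 0.039). Hsd11b1 was higher at each of the 4 times (1.77, 1.26, 1.68 and 1.64), and Cfd lower (-1.19, -1.58, -1.54 and -1.09). In all, 90 genes were called with 1 sign at ZT4, ZT12, ZT16 and ZT20, 47 higher and 43 lower.

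Within the clock list, 12 of 19 members passed the test of the difference between ZT16 and ZT20. Dbp was at -1.51 at ZT16 and at 1.87 at ZT20 (interaction adjusted p = 0.0001). Its NRF level went from 62.0 ± 25.5 CPM at ZT16 to 8.33 ± 2.35 CPM at ZT20, while under DRF it was 20.6 ± 6.96 and 32.7 ± 4.72 CPM (SD, n = 4). Tef and Per3 reversed in the same direction as Dbp (0.68 and 1.36 at ZT20), and Npas2 and Clock reversed in the other (-1.17 and -0.40). For Npas2, NRF mice went from 0.818 ± 0.616 CPM to 9.79 ± 1.01 CPM, and DRF mice were at 4.005 ± 1.498 and 3.81 ± 0.544 CPM. Nr1d1 kept its sign and the difference increased to 3.07 (adjusted p = 0.027). Usp2 was at -2.32 at ZT16 and at -0.82 at ZT20 (adjusted p = 0.00035).

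Sterol and fatty acid synthesis genes also differed between ZT16 and ZT20. Of 26 cholesterol genes, 10 were higher and 4 lower at ZT16, and 2 were higher and 18 lower at ZT20, and 19 passed the test of the difference. Hmgcs1, an early enzyme, was at 0.18 at ZT16 (adjusted p = 0.52) and at -0.80 at ZT20. At ZT12, 24 of the 26 were higher and 1 lower, and at ZT4, with feeding exchanged, 23 were higher and 0 lower. De novo lipogenesis had 4 higher and 0 lower of 16 at ZT12 (median 0.82), 7 higher and 2 lower at ZT16 (median 0.61) and 0 higher and 6 lower at ZT20 (median -0.37). At ZT4 it had 10 higher and 0 lower (median 1.37). The test of the difference between ZT4 and ZT16 was passed by 15 of the 26 cholesterol and 6 of the 16 lipogenesis genes. Elovl6 was higher by 1.34 at ZT16 and gave -0.37 at ZT20, where it was not called (interaction adjusted p = 0.01). Of 20 cell proliferation genes, 0 interactions passed against ZT20, 2 against ZT12 and 1 against ZT4, where 10.4%, 20.6% and 31.0% of all genes passed. At ZT12 all 20 were higher under DRF, at ZT20 8 were and at ZT4 3 were. Cdkn1a was higher at ZT12 (3.05) and ZT16 but was not called at ZT4 (0.42) or ZT20 (0.25), and the differences from ZT4 (adjusted p = 0.001) and ZT20 (adjusted p = 0.0096) passed the test.

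**Figure D4:**
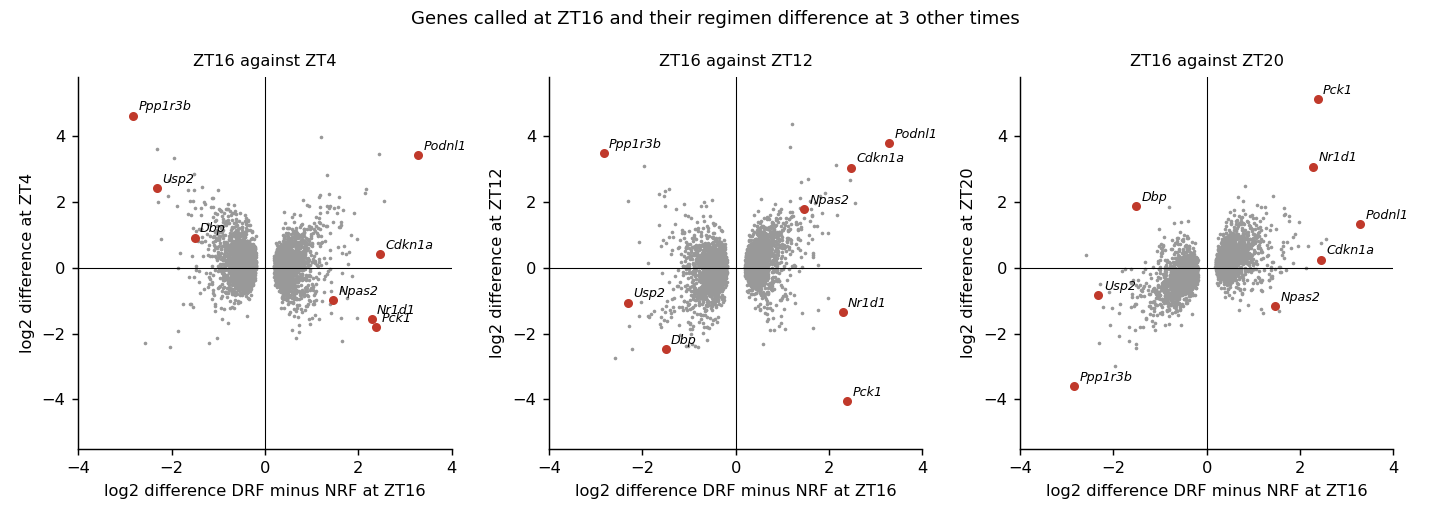
Log2 difference DRF minus NRF at ZT16 (horizontal axis) against that at ZT4, ZT12 and ZT20 (vertical axes), with 1 grey point for each of the 4069 genes called at ZT16. Points spread over all 4 quadrants against ZT4, with Ppp1r3b, Usp2, Pck1 and Nr1d1 opposite in sign, and mostly share the sign against ZT20, with Dbp and Npas2 as exceptions.

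**Figure D5:**
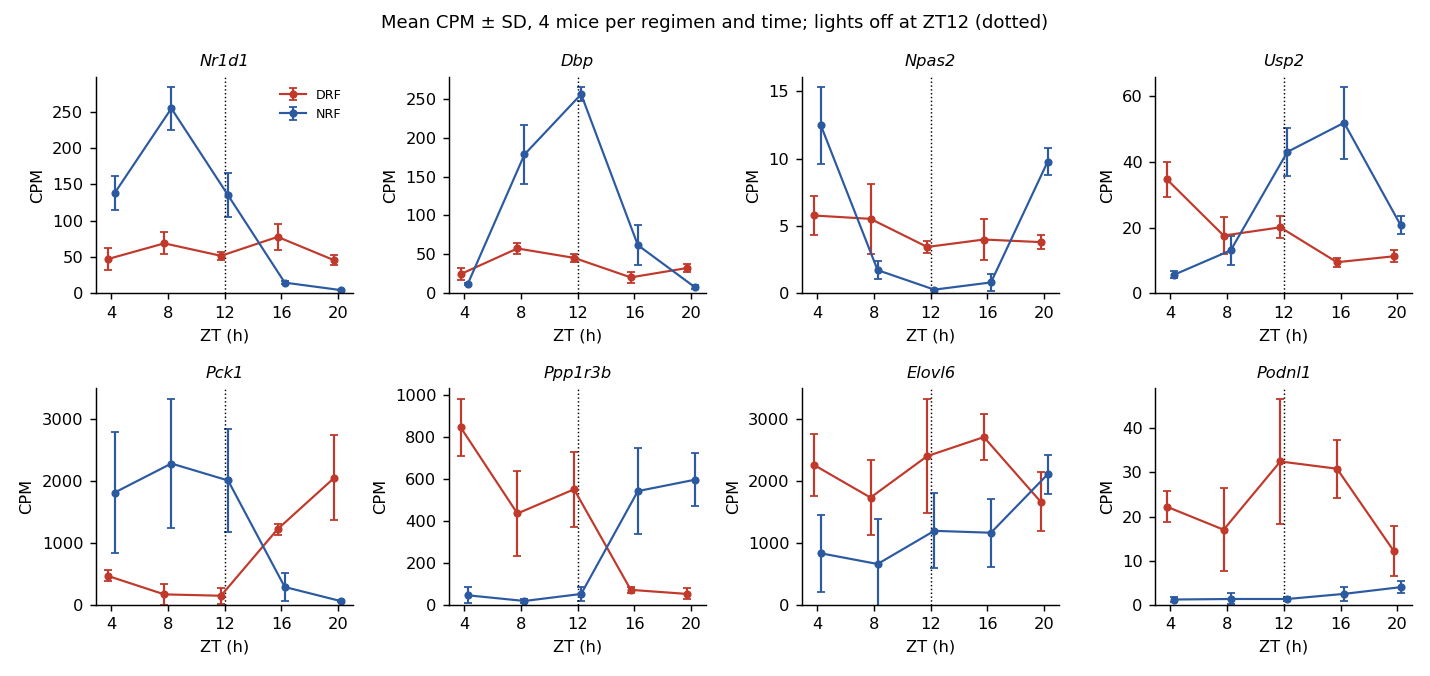
Mean level in CPM with SD (4 mice per point) of 8 genes at ZT4 to ZT20 under DRF (red) and NRF (blue), with lights off at ZT12 marked. Ppp1r3b is higher under DRF at ZT4 and lower at ZT16, Pck1 the reverse, and Podnl1 is higher under DRF at every time.

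Markers of cell types were measured beside these genes, to describe the composition of the samples. All 8 adipocyte markers were tested, and 4 were lower (Cfd, Lep, Cidec and Adipoq) and 0 higher under DRF, while Plin1 (-0.11), Fabp4 (0.13) and Lipe (0.34) were not called. Their summed level was 23935 to 27716 CPM under DRF and 33455 to 41111 CPM under NRF. This gap rested on Cfd, since the other 7 markers summed to 19817 to 23383 CPM under DRF and 21926 to 28584 CPM under NRF, which overlapped, with medians of 22911 and 22559 CPM. Macrophage markers (2 of 8 lower, 866 to 1189 against 944 to 1455 CPM), adipose progenitor markers (2 of 7 lower, 1646 to 1887 against 2026 to 2606 CPM), endothelial markers (1 of 7 lower, 874 to 1048 against 913 to 994 CPM) and mesothelial markers (1 of 7 lower, 358 to 610 against 431 to 529 CPM) had no rises. The shares called in the macrophage and progenitor lists were near the 26.1% of all genes, and the summed progenitor level did not overlap between the regimens. No macrophage marker was called without DRF replicate 2 or NRF replicate 1. No progenitor marker was called without any one of DRF replicate 1 and NRF replicates 1 and 2. Without DRF replicate 4, 3 mesothelial markers were lower. Lymphocyte markers (0 of 6, 76.3 to 94.6 against 86.4 to 153 CPM), red blood cell markers (0 of 4, 243 to 497 against 249 to 374 CPM) and skeletal muscle markers (0 of 6, 14.6 to 409 against 32.2 to 222 CPM) gave no call, and muscle RNA varied between mice of both regimens.

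Markers of neighbouring organs were low. For the ovary, Cyp19a1, Fshr and Hsd3b1 were at 0 or not listed, Star was lower (-0.94, adjusted p = 0.0041) as 1 of 2 tested, and the sum was 4.52 to 7.91 CPM under DRF and 10.3 to 15.1 CPM under NRF. Among epithelial and uterine markers Pax8 was at 0 or not listed, 1 of 6 was lower, the oestrogen receptor gene Esr1 (-0.85), and the sums were 70.8 to 154 and 132 to 156 CPM. Mammary markers summed to under 1 CPM in every library and none was tested. Pancreatic markers lay at 19.8 to 29.9 CPM under DRF and 5.47 to 12.0 CPM under NRF, nearly all of it Cela1 (1.39, adjusted p = 0.00076), while Prss2, Amy2a1 and Pnlip were at 0 or not listed. Liver markers lay at 31.0 to 47.1 and 19.8 to 32.1 CPM, with Alb higher (0.60) and Fgb at 0 or not listed, and neutrophil markers at 1.85 to 3.97 and 0.848 to 1.65 CPM, with 1 of 2 higher. Of 6 brown fat markers, 3 were higher under DRF, Cidea (0.97), Cox7a1 (0.99) and Elovl3 (1.33), and Ucp1 was not called (1.07, adjusted p = 0.29). Without DRF replicate 3, 2 of these markers were higher and 2 lower, and the median went from 0.98 to 0.58. The Cidea call was lost without any one of DRF replicates 2 and 3 and NRF replicates 1, 2 and 4 (adjusted p 0.062 to 0.079). The part of cell composition in the differences above was not tested.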

How the data were processed

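RNA of VAT was sequenced from 56 mice, 1 library each, 4 per group in 14 groups. Per the submitters' processing notes, the authors used HISAT2 2.0.5, featureCounts 1.5.0-p3 and mm10. The library kit does not mark strand, so reads of overlapping antisense genes cannot be told apart. The deposited score, named TPM, proved to be log2(CPM + 1) divided by exon length and rescaled per library by the authors, so no limma test of TPM was run as had been planned. CPM and reads were recovered from the steps between low values: of 1262086 values of up to 10000 reads, 1262086 lay within 0.02 of a whole read. Of 25939 genes, 25049 had a reference length. For 882 the length was taken from the values themselves, so that whole reads there are partly fixed by construction. Another 7 were too abundant to test, and Scd1 could not be resolved. Reads at ZT16 numbered 33.5 to 41.2 M per library.

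Differences of log2(CPM + 1), with a pseudocount of 1, were tested with limma 3.58.1 (trend, R 4.3.3) on the 8 ZT16 libraries over 15592 genes with a mean CPM of at least 0.5. Comparisons with ZT4, ZT12 and ZT20 used 16 libraries and an interaction term. P-values were adjusted by Benjamini-Hochberg over all genes, and a gene is called under 0.05. A call compares these mice only. The 24 pathway and 15 marker lists and the comparison itself were chosen with earlier results of these data known. Genes were named by rule, except a few that are not reported here: all clock members, the 4 largest called differences of each other list, the 10 largest called rises and falls without overlap and with a mean log2 level of at least 1, and the 5 largest held at ZT4. Other list members were named for their function after their values were seen. On simulated data with this design, 179 of 200 changed genes were recovered (82 of the 1.5-fold and 97 of the 2-fold) with 10 others called. Every simulated gene had the same dispersion and only these 200 of 15592 genes were changed. The figures therefore do not carry over to genes that vary more between mice. The adipocyte marker sum without Cfd was added after seeing the data. Alternatives covered scaling, filter, pseudocount, threshold, model, left-out libraries and the replicate number. Promoters are from RefSeq (GRCm38.p6).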

Additional observations from a re-analysis of the deposited data

Results flagged for a closer look

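Of 238 groups of 4 mice examined for the genes named by rule, 11 held 1 mouse whose gap to the nearest other mouse took more of the group's range than Dixon's 95% critical value, where chance gives about 1 in 20. NRF replicate 3 was this mouse for Bhlhe40 (0.860 of the range), Angptl8 (0.957), Pdk4 (0.881), Dnaja1 (0.842), Fosl2 (0.840), Col6a2 (0.933) and Serpina3b (0.922). The others were DRF replicate 4 for Foxo6 (0.987) and Parp1 (0.880), NRF replicate 1 for Gars (0.913) and DRF replicate 1 for Nmnat1 (0.830).

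The regimen difference at ZT16 differed from that at ZT4 for 4837 genes, from that at ZT12 for 3215 and from that at ZT20 for 1629, by the interaction in limma. At an unadjusted p under 0.05 these counts were 6315, 5064 and 3941. All 3 use the same ZT16 libraries. For 5 clock genes called at both times the sign at ZT20 was opposite to that at ZT16, with a ZT16 minus ZT20 difference of 0.95 for Clock, 2.63 for Npas2, -2.07 for Per3, -3.38 for Dbp and -1.62 for Tef. Such a reversal was not confined to the clock list. Dgat1 was at -0.49 at ZT16 and 0.47 at ZT20, and Klf9 at -0.42 and 0.38. Naprt was at -0.39 and 0.33, and Farsb at 0.25 and -0.34. Each was called at both times and passed the interaction test in limma (adjusted p 3.3e-05 to 0.0075). The ZT16 call was lost in 6 alternatives for Klf9 and in 10 for Farsb. Arntl, Per1 and Nr1d2, not called at ZT16, also had opposite signs at the 2 times and passed the interaction test (1.38, -1.05 and -2.38, adjusted p = 0.047, 0.037 and 3.0e-05).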

How the results depend on the processing

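The 4069 calls at ZT16 became 1876 at an adjusted p under 0.01 and 1138 with a fold of at least 1.5 added, and the 1629 interactions with ZT20 became 697 with all 56 libraries in the fit, where 21 of the 119 genes named by rule lost their call, among them Elovl6, Me1, Pgd, Cidea, Bcl6, Socs2, Ier3, Pparg and the cell cycle genes Top2a, Mki67, Ccna2 and Ccnb1. Under the other scalings, filters, pseudocounts and models the ZT16 count lay between 2824 (deposited scores) and 4161 (median ratios), and leaving out each of the 8 libraries gave 2894 to 3664. Between 2664 and 4048 of the calls were kept with the same sign, and 0 with the other sign. Scaling by total reads gave 1684 higher and 2460 lower against 2038 and 2031, with a shift of the median gene of -0.05, and moved the lower members of the triglyceride list from 4 to 7, of the interferon list from 5 to 9 and of the KLF and C/EBP list from 6 to 9, and the higher synthetase genes from 3 to 1. Leaving out each library in turn moved Nr1d2 between -0.28 and 0.050, the latter without NRF replicate 3. With the replicate number as a block, 3220 genes were called at ZT16, and 4690, 2992 and 1710 interactions with ZT4, ZT12 and ZT20. Mice of the same number did not deviate together (correlations of 0.03, -0.19, -0.04 and -0.17, with -0.30 to 0.26 between mice of different numbers). This gave no sign that the numbers pair the mice, but it cannot exclude a shared factor. Depth limits genes under 1 CPM in a regimen, such as Colq and Ciart, whose differences on the log2(CPM + 1) scale are understated.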
